A study of Homo sapiens with 6 samples.

Results

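The gene set described here holds 36 genes of the endoplasmic reticulum (ER): its chaperones, disulfide isomerases, translocon, degradation machinery and the sensors of the unfolded protein response. A probe set, a group of short probes that together report 1 transcript, was counted as a member when the platform annotation gave it a single gene symbol and that symbol was on the list. By this rule 33 of the 36 genes had 86 probe sets, out of 54613 on the array. TXNDC5, SYVN1 and SEC61G had none. DERL3 had 3, all too dim to test. The remaining 32 genes were tested among 11895, each by its brightest probe set, and 76 of the 86 probe sets were bright enough to keep.

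Total RNA came from NCI-H292, an established line of epithelial origin derived from a human lung cancer. The overexpression group (3 arrays) was stably transfected with CT45A1, a cancer/testis antigen, carried as CT45A1-Venus, where Venus is a fluorescent protein. The CT45A1 negative group (3 arrays) carried the Venus vector, so both groups had been transfected and both expressed from a vector in the same line. Neither the number of clones nor whether replicates were separate cultures is stated in the sources used here. The p-values therefore only set group differences against a spread estimated from these arrays, and that spread may be technical.

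The ER imports, folds and exports secreted and membrane proteins. When unfolded proteins build up, the chaperone HSPA5 is drawn away from the sensors ATF6, ERN1 (IRE1) and EIF2AK3 (PERK). Cleaved ATF6 and spliced XBP1 then bind promoters of chaperone, isomerase and degradation genes, while EIF2AK3 slows translation and favours production of ATF4. In this response HSPA5, HSP90B1, DNAJB9, HERPUD1 and SDF2L1 usually rise together, and all of them are used as readouts of it. Splicing of XBP1, cleavage of ATF6 and phosphorylation of the kinases were not measured by these arrays.

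The DNA elements through which ATF6 and XBP1 act are short. The ER stress response element (ERSE) is CCAAT and CCACG with 9 bases between them, and ERSE-II is ATTGG and CCACG with 1 base between them. Promoters from RefSeq (GRCh38.p14), 250 bases before to 50 after each annotated start, were searched for both on both strands. They were found for 33 of the 36 genes, with 40 promoters in all, but not for DERL1, DERL3 and SEC24D. An element was present in 8 of the 40 member promoters (20%) and in 46 of all 35116 (0.131%). ERSE was first described in promoters of genes in this set, so that contrast is not independent evidence. The matches are printed because they mark which members carry the classical element. Each is read along the gene's own strand, with the 2 arms in capitals.

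HSPA5, ERSE, chr9:125241379-125241421: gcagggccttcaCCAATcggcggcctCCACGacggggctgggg
HSP90B1, ERSE, chr12:103930204-103930246: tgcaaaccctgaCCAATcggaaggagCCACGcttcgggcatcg
HSP90B1, ERSE reversed, chr12:103930309-103930351: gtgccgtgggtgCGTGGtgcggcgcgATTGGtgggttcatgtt
PDIA6, ERSE, chr2:10812841-10812883: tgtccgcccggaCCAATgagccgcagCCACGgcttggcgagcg
XBP1, ERSE, chr22:28800591-28800633: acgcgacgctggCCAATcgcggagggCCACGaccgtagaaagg
CRELD2, ERSE reversed, chr22:49918542-49918584: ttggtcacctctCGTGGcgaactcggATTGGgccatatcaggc
HERPUD1, ERSE-II, chr16:56932013-56932047: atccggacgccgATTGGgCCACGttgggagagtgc
SDF2L1, ERSE-II reversed, chr22:21642102-21642136: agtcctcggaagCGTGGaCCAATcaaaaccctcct
HYOU1, ERSE-II reversed, chr11:119057368-119057402: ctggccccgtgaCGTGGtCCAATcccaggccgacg
HYOU1, ERSE-II reversed, chr11:119057262-119057296: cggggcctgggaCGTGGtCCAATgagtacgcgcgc

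HYOU1, PDIA6, HSPA5 and XBP1 lie on the minus strand and the other 4 on the plus strand. HSP90B1 and HYOU1 carried 2 matches each and the other 6 genes 1 each. A further element bound by XBP1 and ATF6, the UPRE (searched as TGACGTGG, both strands), lay in 256 of the 35116 promoters (0.729%) and in 3 member promoters, those of HYOU1, SSR3 and TXNDC5. In HYOU1 it overlapped the distal ERSE-II. PDIA4 gave the largest difference of the set at the brightest probe sets. It had none of the 3 elements in its 2 promoter windows, which says only that these letters are not in those windows.

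**Figure D1:**
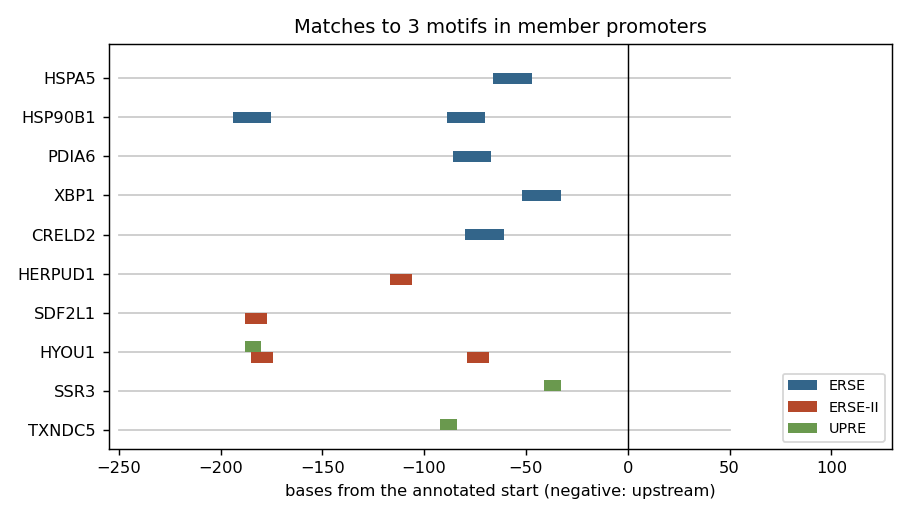
Position of ERSE, ERSE-II and UPRE matches in 10 member promoters, in bases from the annotated start of transcription, with the searched window drawn in grey. All matches lie upstream of the start, between -194 and -41 at their first base.

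Of the 32 members tested, 2 rose with CT45A1, HYOU1 and PDIA4, none fell, and 30 did not pass (limma with Benjamini-Hochberg adjustment over all genes, threshold 0.05, two-sided). Over all 11895 genes, 1.94% rose and 1.89% fell, and the 6.25% of members called rests on 2 genes. At an unadjusted p under 0.05 there were 7 higher and 4 lower members, 34.4% of the set, against 20.9% of all genes. The 3 overexpression arrays did not overlap the 3 negative ones in 13 of 32 members (40.6%), against 27.2% of all genes. The mean SE of the log2 difference was 0.083 for members and 0.153 for all genes. The shares in this paragraph therefore do not compare genes of equal spread. Each difference is the mean log2 signal with CT45A1 minus that without it. Differences were small. Their median with sign kept was 0.051 for members and 0.008 for all genes, so rises and falls cancel in it. With sign dropped the median was 0.121 for members and 0.143 for all genes. The lowest member differed by -0.30 and the highest by 0.33. No member differed by 0.5 or more in either direction, a size that 8.35% of all genes reached.

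**Figure D2:**
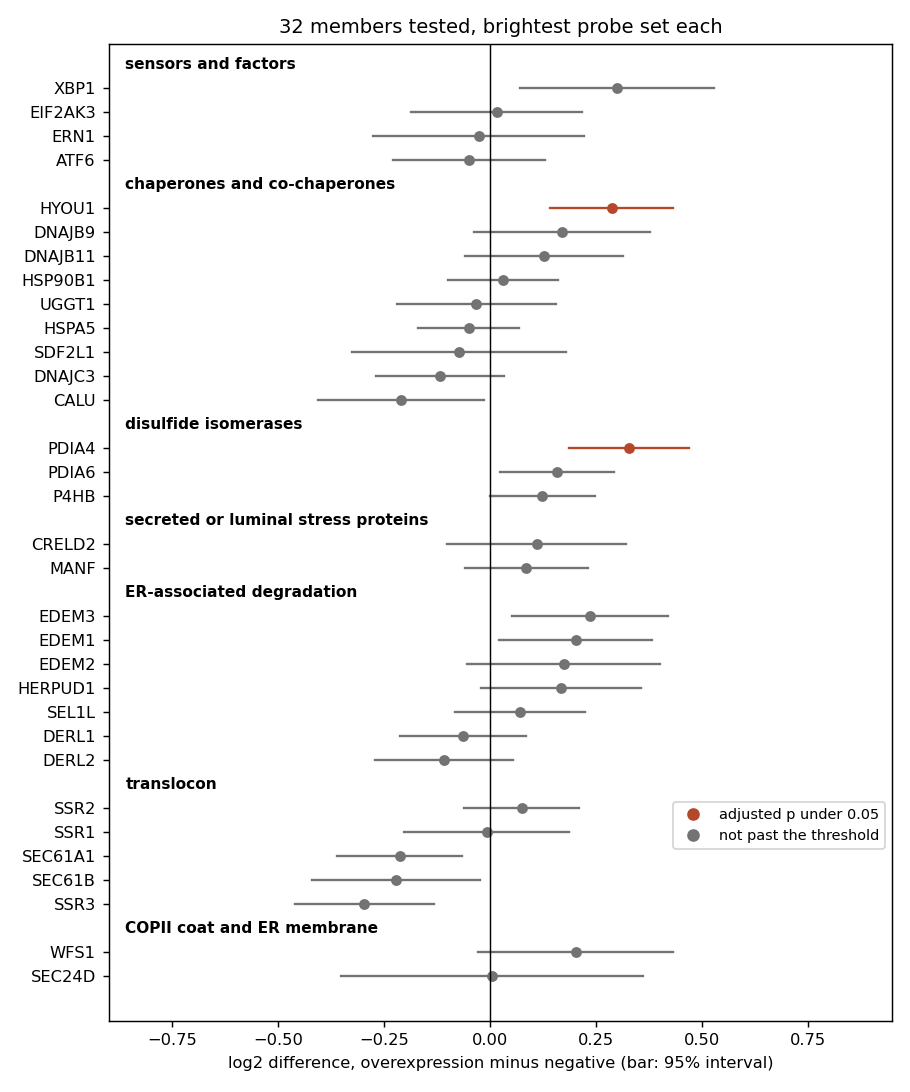
Log2 difference of each of the 32 members tested, overexpression minus negative, with limma's 95% interval, grouped by role. HYOU1 and PDIA4 (red) passed the threshold, while HSPA5, HSP90B1, ATF6, ERN1 and EIF2AK3 lie close to 0.

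The 3 sensors showed no difference beyond the spread of the arrays. ATF6, the membrane-bound factor that is cut to release its active part, gave signals of 1101, 1168 and 1106 with CT45A1 and 1192, 1127 and 1172 without it. The groups overlapped, and the difference was -0.05 (SE 0.08, 95% interval -0.23 to 0.13). ERN1, the kinase and nuclease that splices XBP1 mRNA, gave 499, 566 and 561 against 576, 501 and 581, with a difference of -0.03 (SE 0.11, 95% interval -0.28 to 0.22). EIF2AK3, the kinase that phosphorylates the initiation factor eIF2, gave 1254, 1223 and 1079 against 1235, 1130 and 1148, with a difference of 0.02 (SE 0.09, 95% interval -0.19 to 0.22). For both kinases the groups overlapped as well. The limma adjusted p was 0.772 for ATF6, 0.922 for ERN1 and 0.943 for EIF2AK3. A second kept ERN1 probe set differed by -0.07 (SE 0.18) with overlapping groups.

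ATF6 had 3 further kept probe sets, at -0.11, -0.23 and -0.61. All 4 therefore lay below 0 and none passed, and the groups did not overlap in the one at -0.23. The one at -0.61 was also the most variable, with 683, 499 and 894 against 1305, 1350 and 621, where negative replicate 3 lay inside the range of the overexpression arrays.

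XBP1, the transcription factor whose mRNA is spliced by ERN1, gave 1110, 1095 and 976 with CT45A1 and 894, 928 and 768 without it. Every overexpression array lay above every negative one. Its difference of 0.30 (SE 0.10, 95% interval 0.07 to 0.53) was of the size of those of HYOU1 and PDIA4, but with a wider spread, and it did not pass (limma adjusted p = 0.141). When the actin 3'/5' ratio of each array entered the limma fit, XBP1 differed by -0.01 (adjusted p = 0.982). That ratio compares probe sets at both ends of the actin transcript and reflects RNA integrity and labelling length. It was 1.42 to 1.55 on the overexpression arrays and 1.64 to 1.91 on the negative ones, so it moved with the groups. The same fit gave HYOU1 0.19 (adjusted p = 0.371) and PDIA4 0.46 (adjusted p = 0.0343), so HYOU1 lost its call and PDIA4 kept it. The ratio did not overlap between the groups, so this fit cannot tell group and ratio apart. The part of the ratio in the results was not tested.

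**Figure D3:**
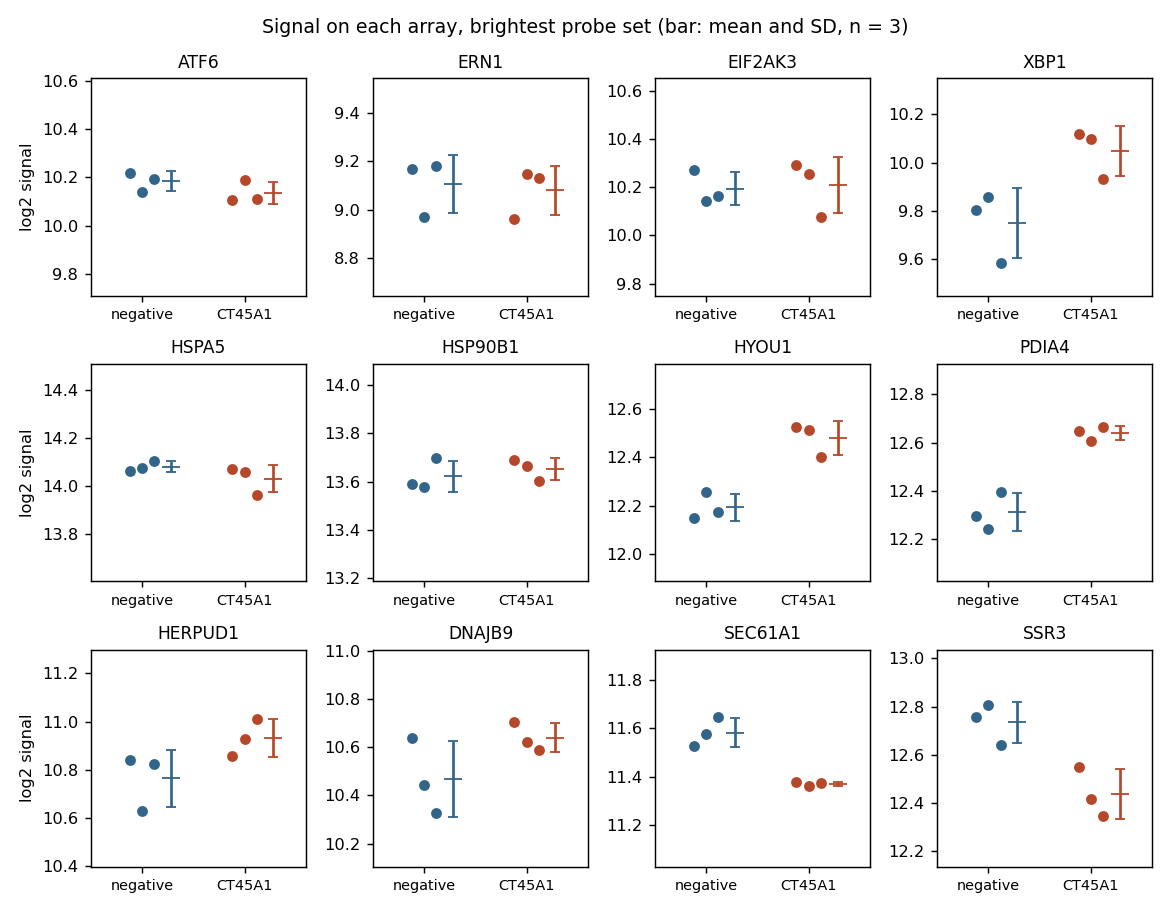
Log2 signal on each array for 12 members at their brightest probe sets, with the mean and SD of each group (n = 3). HYOU1, PDIA4, XBP1 and HERPUD1 are higher and SEC61A1 and SSR3 lower on all CT45A1 arrays, while ATF6, ERN1, EIF2AK3, HSPA5, HSP90B1 and DNAJB9 overlap.

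Among chaperones, 1 of 9 tested rose and 8 did not pass, while 1.94% of all genes rose. HSPA5 (BiP), the main Hsp70 of the ER lumen and the standard marker of the response, gave 17199, 17053 and 15994 with CT45A1 against 17100, 17265 and 17633. The groups overlapped, and its difference of -0.05 (SE 0.05) had a 95% interval of -0.17 to 0.07, which as a ratio is 0.889 to 1.05. A second, much dimmer HSPA5 probe set differed by -0.29 (SE 0.14) with overlapping groups. HSP90B1 (GRP94), the Hsp90 of the ER, gave 13224, 12994 and 12425 against 12334, 12218 and 13279. It differed by 0.03 (SE 0.06, 95% interval -0.10 to 0.16), and its other kept probe set by 0.22 (SE 0.16). In limma the adjusted p was 0.634 for HSPA5 and 0.803 for HSP90B1. Both intervals are narrow on the deposited scale, but HSPA5 passed as lower on another scaling, given with the scaling of the arrays.

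HYOU1 (GRP170), a large Hsp70 relative that acts as nucleotide exchange factor for HSPA5, gave 5898, 5852 and 5406 with CT45A1 and 4543, 4888 and 4625 without it. All overexpression arrays were higher than all negative ones. The mean log2 signal rose from 12.19 ± 0.055 to 12.48 ± 0.070 (SD, n = 3), a difference of 0.29 (SE 0.07, limma adjusted p = 0.0401), or 1.22-fold with a 95% interval of 1.10 to 1.35. HYOU1 has only 1 probe set of its own here. It passed in 7 of 16 alternative settings. It stayed above 0 in all 16 but lost the call when overexpression replicate 1 or 2, or any single negative replicate, was left out, with an adjusted p of 0.0620 to 0.166.

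The co-chaperones of HSPA5 did not move together. DNAJB9 (ERdj4), a J-protein strongly induced by spliced XBP1, gave 1670, 1577 and 1541 against 1593, 1390 and 1286. Negative replicate 1 lay among the overexpression arrays, and the difference was 0.17 (SE 0.09, limma adjusted p = 0.328). Other kept DNAJB9 probe sets differed by 0.19 and -0.02 with overlapping groups, and neither passed. DNAJB11 (ERdj3) differed by 0.13 (SE 0.08). DNAJC3 (p58IPK), a J-protein that also inhibits EIF2AK3, differed by -0.12 (SE 0.07) at its brightest probe set and by -0.34, -0.18 and -0.10 at its other 3. Its brightest probe set and the one at -0.34 did not overlap between the groups, and none of the 4 passed. SDF2L1, a partner of DNAJB11 and an early target of ATF6, gave 650, 638 and 569 against 578, 710 and 669, a difference of -0.07 (SE 0.11). UGGT1, which reglucosylates misfolded glycoproteins, differed by -0.03 (SE 0.08) at its brightest probe set and by 0.23, 0.04, -0.01 and -0.22 at the others. None of these UGGT1 probe sets passed, and the groups did not overlap in the one at 0.23.

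CALU, a calcium-binding protein of the secretory pathway, differed by -0.21 (SE 0.09, adjusted p = 0.215) at its brightest probe set. Of its other 4 probe sets, 2 lay below 0 (-0.03 and -0.25) and 2 above (0.11 and 0.14). In the fit with the actin ratio the brightest one differed by -0.52 and passed (adjusted p = 0.0266). MANF and CRELD2, small soluble proteins released from stressed cells, differed by 0.09 (SE 0.07) and 0.11 (SE 0.09). Their groups overlapped. After centring on the array medians MANF differed by -0.06 and CRELD2 by -0.03. With the actin ratio in the fit CRELD2 lay above 0 and MANF below.

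All 3 disulfide isomerases tested lay above 0 with groups that did not overlap, and 1 passed. Over all genes, whose mean SE was larger, 27.2% did not overlap and 3.83% passed. P4HB turned to -0.02 when arrays were centred on their medians. With _x_at and _s_at probe sets left out, 1 of the 3 lay above 0. PDIA4 (ERp72) gave 6422, 6232 and 6494 with CT45A1 and 5036, 4838 and 5393 without it at its brightest probe set. The mean rose from 12.31 ± 0.079 to 12.64 ± 0.031 (SD, n = 3), a difference of 0.33 (SE 0.06, limma adjusted p = 0.0245), or 1.26-fold with a 95% interval of 1.14 to 1.38. Its other probe set gave 1680, 1736 and 1673 against 1579, 1667 and 1856 and did not differ beyond the spread (0.00, SE 0.08). The call therefore rests on 1 of 2 probe sets. With the mean of both, PDIA4 differed by 0.16 (adjusted p = 0.194). It passed in 8 of 17 alternatives and lost the call without overexpression replicate 1, 2 or 3 or negative replicate 1 or 2 (adjusted p 0.0515 to 0.0924).

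PDIA6 (P5) differed by 0.16 (SE 0.06, adjusted p = 0.177) at its brightest probe set. At a second it gave 7941, 7545 and 6964 with CT45A1 and 6041, 5742 and 5943 without it. That is a difference of 0.34 (SE 0.07, limma adjusted p = 0.0264 over all probe sets). The other 2 differed by 0.10 and -0.05. P4HB, the classical protein disulfide isomerase, gave 12562, 12524 and 11667 against 11136, 11346 and 11225, a difference of 0.12 (SE 0.06, adjusted p = 0.237). At another of its probe sets the difference was 0.36 (SE 0.09, adjusted p = 0.0743 over all probe sets), and at the third -0.03.

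The degradation pathway returns misfolded proteins to the cytosol for the proteasome. Of its 7 members tested, 5 lay above 0. This count was 4 after centring or with the mean of probe sets. It was 2 of 4 with _x_at and _s_at probe sets left out. None passed in limma, and 2 (28.6%) had an unadjusted p under 0.05, against 20.9% of all genes. HERPUD1, a ubiquitin-like membrane protein of this pathway that is induced by all branches of the response, gave 1856, 1947 and 2066 with CT45A1 and 1835, 1584 and 1811 without it. Its groups lay side by side without overlap, 1856 being the lowest and 1835 the highest at the border. The difference was 0.17 (SE 0.09, adjusted p = 0.290).

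The EDEM proteins, which recognise or trim mannose on misfolded glycoproteins, all lay above 0 with separate groups, as HERPUD1 did. These were 4 of the 7 members tested in this pathway, and over all genes 27.2% had separate groups. EDEM1 gave 2005, 1864 and 2070 against 1724, 1828 and 1611, a difference of 0.20 (SE 0.08). EDEM2 differed by 0.17 (SE 0.10). EDEM3 gave 1989, 1944 and 1860 against 1798, 1580 and 1548, a difference of 0.24 (SE 0.08, adjusted p = 0.145), and its other 2 probe sets differed by 0.21 and 0.37, again without overlap. None of these passed. After centring on the array medians EDEM1 differed by 0.06, EDEM2 by 0.03 and EDEM3 by 0.09. SEL1L, the scaffold of the ubiquitin ligase complex, differed by 0.07 (SE 0.07). The derlins DERL1 and DERL2, which form part of the exit channel, differed by -0.06 (SE 0.07) and -0.11 (SE 0.07). The other kept probe sets lay at -0.09 and -0.12 for SEL1L, -0.14 and 0.19 for DERL1, and 0.05 for DERL2. None of them passed, and the groups did not overlap in the DERL1 one at 0.19.

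Of 5 translocon genes tested, none passed in limma, and 3 had an unadjusted p under 0.05, all lower. Over all genes 20.9% had such a p, in either direction. At the brightest probe sets 4 lay below 0 and 1 above (5 below after centring, 3 after quantile normalization). With the mean of each gene's probe sets 1 lay below 0 and 4 above, so the direction of this group depended on which probe sets were taken. SSR3, the gamma subunit of the translocon-associated protein complex, gave 6000, 5465 and 5210 with CT45A1 and 6918, 7169 and 6378 without it. All overexpression arrays were lower. The difference of -0.30 (SE 0.07, limma adjusted p = 0.0552) missed the threshold and passed in 6 of 17 alternatives, without negative replicate 3 among them (-0.34, adjusted p = 0.0375). SSR3 probe sets were split, with -0.27 at one and 0.09 and 0.12 at the other 2. SEC61A1, the pore-forming subunit, gave 2659, 2628 and 2655 against 2948, 3055 and 3205, a difference of -0.21 (SE 0.07, adjusted p = 0.117).

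The second SEC61A1 probe set ran in the opposite direction, at 0.31 (SE 0.12), with 859, 805 and 779 against 599, 776 and 606 and no overlap. SEC61B, a small subunit of the channel, gave 9112, 9056 and 11416 against 11394, 10908 and 12004. Overexpression replicate 3 lay among the negative arrays, and without it the difference was -0.33 and passed (adjusted p = 0.0275), against -0.22 (SE 0.09, adjusted p = 0.196) with it. A second, dim SEC61B probe set lay in the opposite direction at 0.32 (SE 0.23) with overlapping groups, and the mean of both differed by 0.05. SSR1 and SSR2, the alpha and beta subunits of the same complex as SSR3, differed by -0.01 (SE 0.09) and 0.07 (SE 0.06). The other kept SSR1 probe sets lay at 0.18, 0.10, -0.06, 0.12 and 0.10. None of them passed, and the groups did not overlap in the one at 0.18.

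The last 2 members are SEC24D, a cargo-binding subunit of the COPII coat, and WFS1 (wolframin), a membrane protein of the ER involved in calcium handling. SEC24D gave 917, 883 and 603 against 798, 880 and 689, the largest SE among the brightest probe sets of members, and differed by 0.00 (SE 0.16). WFS1 gave 664, 732 and 635 against 572, 625 and 567. It was higher on all overexpression arrays, by 0.20 (SE 0.10, adjusted p = 0.294), and its second kept probe set differed by 0.29 (SE 0.19).

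Probe sets of 1 gene did not always tell the same story. Of the 76 kept probe sets, 42 lay above 0 and 34 below, and 3 passed (3.95%), against 3.23% of all probe sets kept. The 3 were those of HYOU1 and PDIA4 and 1 of PDIA6. Of the 21 members with several kept probe sets, 13 had values on both sides of 0. The ratio of 2 probe sets of a gene within 1 array does not change when the whole array is multiplied by a common factor. Quantile normalization can change it. The ratio was taken from the deposited signals for 44 pairs, each the brightest probe set against another of the same gene. In 14 pairs (31.8%) the groups did not overlap, against 20.0% of 10874 such pairs over all genes. Each of the 14 had an exact two-sided permutation p of 0.100, the smallest that 3 arrays against 3 allow, so no pair could pass 0.05. For PDIA4 the log2 ratio was 1.93, 1.84 and 1.96 with CT45A1 and 1.67, 1.54 and 1.54 without it. For SEC61A1 it was 1.63, 1.71 and 1.77 against 2.30, 1.98 and 2.40. These pairs are described because they did not overlap, and the ratio does not say which probe set followed the gene. The part of each transcript that a probe set targets was not used here.

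**Figure D4:**
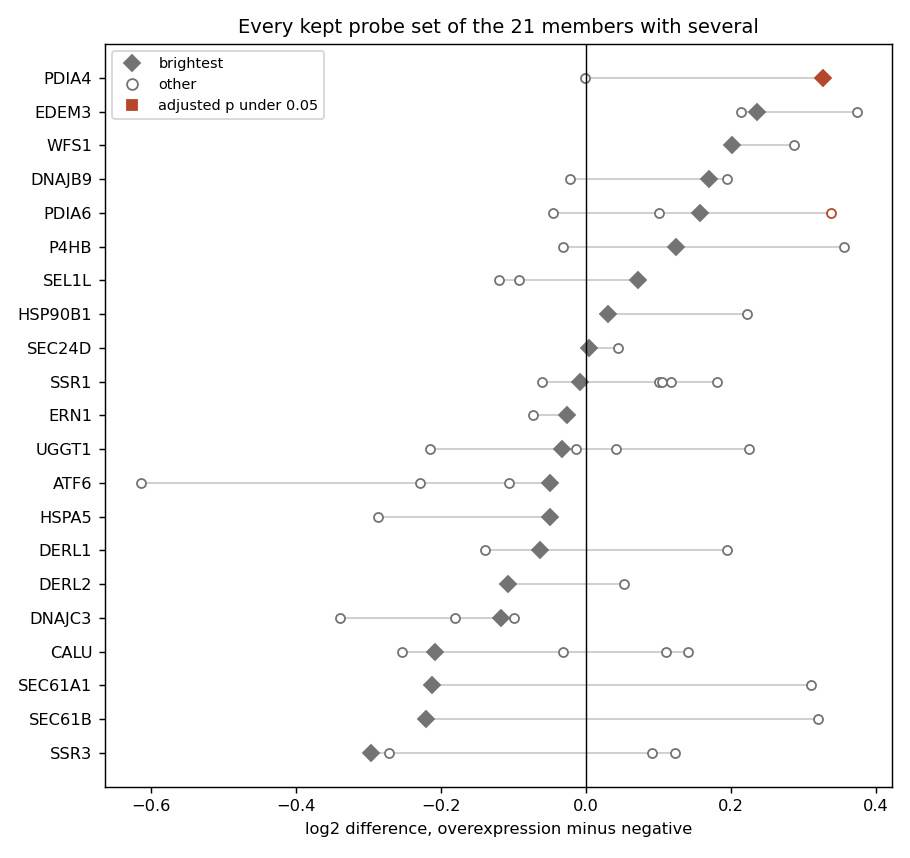
Log2 difference of every kept probe set for the 21 members with several, with the brightest as a filled diamond and the others as open circles. The probe sets of EDEM3 lie above 0 and those of ATF6 and DNAJC3 below, while those of SEC61A1, SEC61B and SSR3 lie on both sides.

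The members with an ERSE or ERSE-II in the promoter were described as a group without a test. Of 8 tested, 6 lay above 0 and 2 below, with a median difference of 0.134, 1 past the threshold (HYOU1) and 4 without overlap. Of the 22 tested members whose promoters held neither, 12 lay above 0 and 10 below, with a median of 0.044, also 1 past the threshold (PDIA4) and 9 without overlap. Over all genes 27.2% did not overlap and 3.83% passed. HSPA5 and HSP90B1, both with the full ERSE, did not pass on the deposited scale.

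Other genes of the pathway were taken from 5 further lists. Of 27 other chaperones, lectins and disulfide isomerases tested, none rose, 2 fell and 25 did not pass. The 7.41% called rests on these 2 genes, and over all genes 3.83% were called. PDIA3 (ERp57), the isomerase that works with calnexin and calreticulin, fell at its brightest probe set from 6081, 6788 and 6995 to 4099, 3605 and 3828. The difference of -0.78 (SE 0.08, limma adjusted p = 0.000866) is larger than that of any member, but its other 2 probe sets differed by 0.01 and 0.06. GANAB, the catalytic subunit of glucosidase II, fell from 1908, 2009 and 1831 to 1005, 1262 and 1243, by 0.72 (SE 0.10, adjusted p = 0.00535), and differed by -0.43 (SE 0.17) at its other probe set. CALR and CANX, the lectins that GANAB hands glycoproteins to, differed by -0.22 (adjusted p = 0.0780) and -0.03 (adjusted p = 0.823).

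Of 18 genes of UPR processing and its branches, 1 rose, 1 fell and 16 did not pass. The 11.1% called rests on ATF3 and ATF6B alone, against 3.83% of all genes. ATF3, a stress-induced transcription factor that can lie downstream of EIF2AK3 and ATF4 and also of other signals, rose from 556, 494 and 525 to 979, 938 and 953. All 3 overexpression arrays were clearly higher, by 0.87 (SE 0.09, limma adjusted p = 0.00155). A second ATF3 probe set rose by 1.03 (SE 0.16, adjusted p = 0.0116 over all probe sets), the third, dim one differed by 0.24 (SE 0.35), and ATF3 passed in 17 of 17 alternatives. ATF6B, the relative of ATF6, fell from 411, 419 and 404 to 249, 248 and 181, by 0.88 (SE 0.16, adjusted p = 0.0166), with -0.14 at its other kept probe set. It passed in 10 of 16 alternatives.

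The other outputs of EIF2AK3 in that list did not pass. ATF4, the factor translated when eIF2 is phosphorylated, differed by 0.06 (adjusted p = 0.704). Its target DDIT3 (CHOP) differed by 0.28 (adjusted p = 0.437), PPP1R15A (GADD34) by 0.17 (adjusted p = 0.463), TRIB3 by -0.37 (adjusted p = 0.151) and CHAC1 by -0.49 (adjusted p = 0.548). These 5, like CALR and CANX, were named after their values were seen.

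The 3 remaining lists had no gene past the threshold in limma. Of 19 other degradation genes, 9 lay above 0 and 10 below, with a median of -0.017 and 5 at an unadjusted p under 0.05. Of 30 other genes of the translocon, signal peptidase and oligosaccharyltransferase, 10 lay above 0 and 20 below, with a median of -0.048 and 7 at an unadjusted p under 0.05, 6 of them lower. Of 19 COPII and KDEL receptor genes, 8 lay above 0 and 11 below, with a median of -0.022 and 4 at an unadjusted p under 0.05. The shares at that p were 26.3%, 23.3% and 21.1% in the 3 lists, against 20.9% of all genes.

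The scaling of the arrays moves values of this size. The deposited arrays share a trimmed mean, while their median signals ranged from 79.2 to 83.3 with CT45A1 and from 72.6 to 75.6 without it. Centring each array on its median lowered every difference by 0.145. All genes then had a median of -0.136 with 165 higher and 1650 lower, against 231 and 225 as deposited. Of the members, 10 then lay above 0 and 22 below, and none passed as higher and 6 as lower (CALU, DNAJC3, HSPA5, SEC61A1, SEC61B and SSR3). HYOU1 and PDIA4 kept their sign at 0.14 and 0.18 but did not pass (adjusted p = 0.182 and 0.0916). HSPA5 differed by -0.19 (adjusted p = 0.0334) on that scale. With quantile normalization PDIA6 passed as well (0.23, adjusted p = 0.0475). Relative to the median of all genes, which centring cannot change, the median member lay 0.043 higher as deposited. It lay 0.109 higher after quantile normalization and 0.0081 higher when dim probe sets were kept. The same difference was -0.0011 with the actin ratio in the fit and -0.0022 with _x_at and _s_at probe sets left out.

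**Figure D5:**
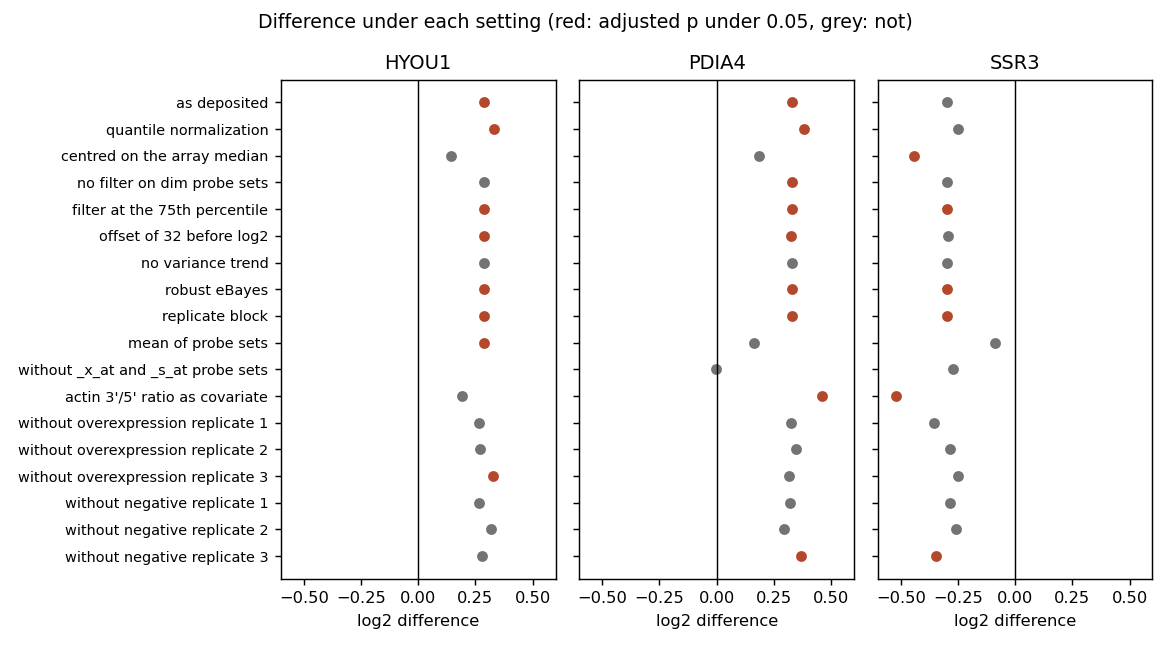
Log2 difference of HYOU1, PDIA4 and SSR3 as deposited and under 17 alternative settings, red where the adjusted p was under 0.05. HYOU1 lies above 0 and SSR3 below 0 in each setting they entered, and PDIA4 falls to 0.00 where probe sets ending in _x_at or _s_at are left out.

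The labels were checked on the arrays. Signals of 2 CT45 probe sets, each annotated to 9 CT45 genes, were 154 to 700.1 with CT45A1 and 1.95 to 36.3 without it. The epithelial markers EPCAM, CDH1, KRT8, KRT18 and KRT19 were all bright enough to test, and of these KRT18 was lower with CT45A1 (-0.25, limma adjusted p = 0.0393 over all probe sets). The leukocyte markers PTPRC, CD3E and LYZ, the endothelial marker VWF and the fibroblast markers DCN, LUM and PDGFRA were not. The dim probe sets of CD14, PECAM1 and CDH5 passed the filter, with no difference past the threshold.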

How the data were processed

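The authors deposited 1 linear intensity for each probe set, the MAS5 signal. MAS5 and affy are the tools named, per the submitters' processing notes, and their versions are not given in the sources used here. RNA was labelled with a 3' expression kit, per the labels' protocols. The 2% trimmed mean was 500.1 on every array. Signals were taken to log2. Control probe sets (62) were left out, and probe sets were kept when above the array median on at least 3 of the 6 arrays (27618 kept). Symbols of the platform annotation, which can be old, were updated through Entrez identifiers in RefSeq (GRCh38.p14). The comparison across all genes used limma 3.58.1 in R 4.3.3 (1 mean per group, eBayes with trend) on all probe sets kept. Each gene was represented by its brightest probe set, and p-values were adjusted by Benjamini-Hochberg over 11895 genes.

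The members, lists and alternatives were chosen with earlier results of these data known. Every member was named, with values on each array for those past the threshold and for the main sensors and markers of the response. Array values of other members were added after they were seen. Of other lists, up to 4 genes past the threshold were named. On simulated arrays for this comparison over 11895 genes, 40.3% of 67 genes changed 1.5-fold, 79.1% of 67 changed 2-fold and 97.0% of 66 changed 4-fold were recovered, and 8 of 152 calls were false. At the brightest probe sets the largest member difference was 1.26-fold (PDIA4). Recovery was therefore not simulated for differences as small as the members had at those probe sets. Replicate numbers did not pair the arrays: same-numbered arrays had correlations of deviations of -0.013, 0.0038 and 0.149. Alternatives were other scalings, filters, offsets and variance models, a replicate block, the mean of probe sets, the actin ratio as a covariate and leaving out each array. Proteins were not analysed here. Python 3.11.15, numpy 2.4.6, scipy 1.17.1, pandas 2.3.3 and matplotlib 3.10.9 were used.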

Additional observations from a re-analysis of the deposited data

How the results depend on the processing

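The number of arrays limits every value. As deposited, 456 genes, 892 probe sets, 2 higher and 0 lower members passed, and the members had a median difference, sign kept, of 0.051. After centring on the array median these were 1815, 2975, 0 and 6, with a median of -0.093. Without a variance trend 11 genes, 4 probe sets and 0 higher members passed. Without a filter on dim probe sets 486 probe sets and 1 higher member passed. With _x_at and _s_at probe sets left out, 446 probe sets and 0 higher members passed, the median was 0.0048 over the 25 members left, and PDIA4 reversed to -0.00093 (adjusted p = 0.998). With the actin ratio as a covariate 1 higher and 2 lower members passed, with a median of 0.0081. With the mean of probe sets 1 higher member passed. The filter at the 75th percentile, robust eBayes and the replicate block each added 1 lower member, SSR3. The median was 0.100 after quantile normalization. Leaving out each array in turn gave 91 to 575 genes, 159 to 1171 probe sets, 0 to 1 higher and 0 to 1 lower members, and medians of 0.035 to 0.086. The count was 91 to 297 without any 1 array other than negative replicate 3, and 575 without that one.

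With the replicate block 536 genes passed, with HYOU1, PDIA4 and SSR3 (adjusted p = 0.0339) among the members. Same-numbered arrays share only a number, so this fit is not a paired test. Of 603 values of single genes under 17 alternatives, 27 lost and 14 gained a call, and 1 reversed. In 40 others a member past the threshold in neither setting changed sign.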
